A study of Mus musculus with 24 samples.

Results

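The genes described here are 9 that carry the synthesis, loading, uptake, breakdown and reception of the inhibitory transmitters GABA and glycine: Gad1, Gad2, Slc32a1, Slc6a11, Slc6a5, Slc6a9, Abat, Glra1 and Glrb. They were taken as a list of symbols from the 37991 Ensembl gene identifiers counted in mouse cerebellum, and all 9 were found. No value entered the rule that matched them, but the list was chosen with earlier results of these data known. Gene expression was measured by mRNA sequencing of cerebellum from male mice of the inbred strain C57BL/6J at 7 weeks of age (2 libraries) and at 79 weeks of age (2 libraries). No genotype or treatment is named in the labels, so the groups differ by age alone as far as these state it. Of the 24 samples in the series, the 20 genomic ones were not analysed here.

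Inhibition in the cerebellum is carried by GABA and glycine. Purkinje cells, basket cells and stellate cells release GABA, and Golgi cells and some neurons of the cerebellar nuclei release GABA, glycine or both. Glutamate decarboxylase makes GABA from glutamate, a single vesicular carrier loads both GABA and glycine, plasma membrane transporters of neurons and glia clear them, and GABA transaminase breaks GABA down. The glycine receptor is a chloride channel of alpha subunits and a beta subunit, and the beta subunit ties the channel to gephyrin under the synapse.

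Library depth ranged from 16367656 to 22826993 gene counts. Levels are given in CPM (read counts scaled to library size by TMM), and the 3 counts that a count of 0 allows come to 0.13 to 0.187 CPM, a limit for counting error only. Since transcript lengths were not used, levels are compared between libraries and not between genes. Of 15292 genes tested between ages, edgeR's quasi-likelihood test called 637 higher and 715 lower at 79 weeks (Benjamini-Hochberg adjusted p under 0.05), a split of 47.1% higher that became 65.1% when counts were scaled by library size alone. Without 7-week replicate 1 or 2, edgeR called 0 and 175 genes, so no marker or partner call below held without 7-week replicate 1 in edgeR. Whether the libraries of an age are different animals is not stated, so each p measures spread between libraries that may be technical. The tissue label was checked on Gabra6, a granule neuron receptor subunit, which was at 888.2 and 869 CPM at 7 weeks and 591.3 and 591.5 CPM at 79 weeks. One library stands apart: the choroid plexus gene Ttr was at 5061 CPM in 79-week replicate 1 and at 0.187 to 2.16 CPM in the others, so values without that library are given for each of the 9 genes and each partner whose call they change.

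Among the 9 genes, Glrb was called lower at 79 weeks and the other 8 were not called. That is 1 of 9 against 8.84% of all tested genes in either direction, 1 of 9 lower against 4.68%, and 0 of 9 higher against 4.17%. At an unadjusted p under 0.05, edgeR placed 3 of the 9 higher (Gad1, Slc6a11 and Glra1) and 1 lower (Glrb), and 26.7% of all tested genes passed that mark. DESeq2 called Gad1 and Glrb, and limma-voom called Glrb. The ages did not overlap for 5 of the 9 (Gad1, Slc6a11, Slc6a9, Glra1 and Glrb), beside 57.7% of all tested genes. The median log2 fold change (79 weeks minus 7 weeks) was -0.01 over the 9 genes and 0.01 over all genes, and the median of its absolute size was 0.13 and 0.16.

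**Figure D1:**
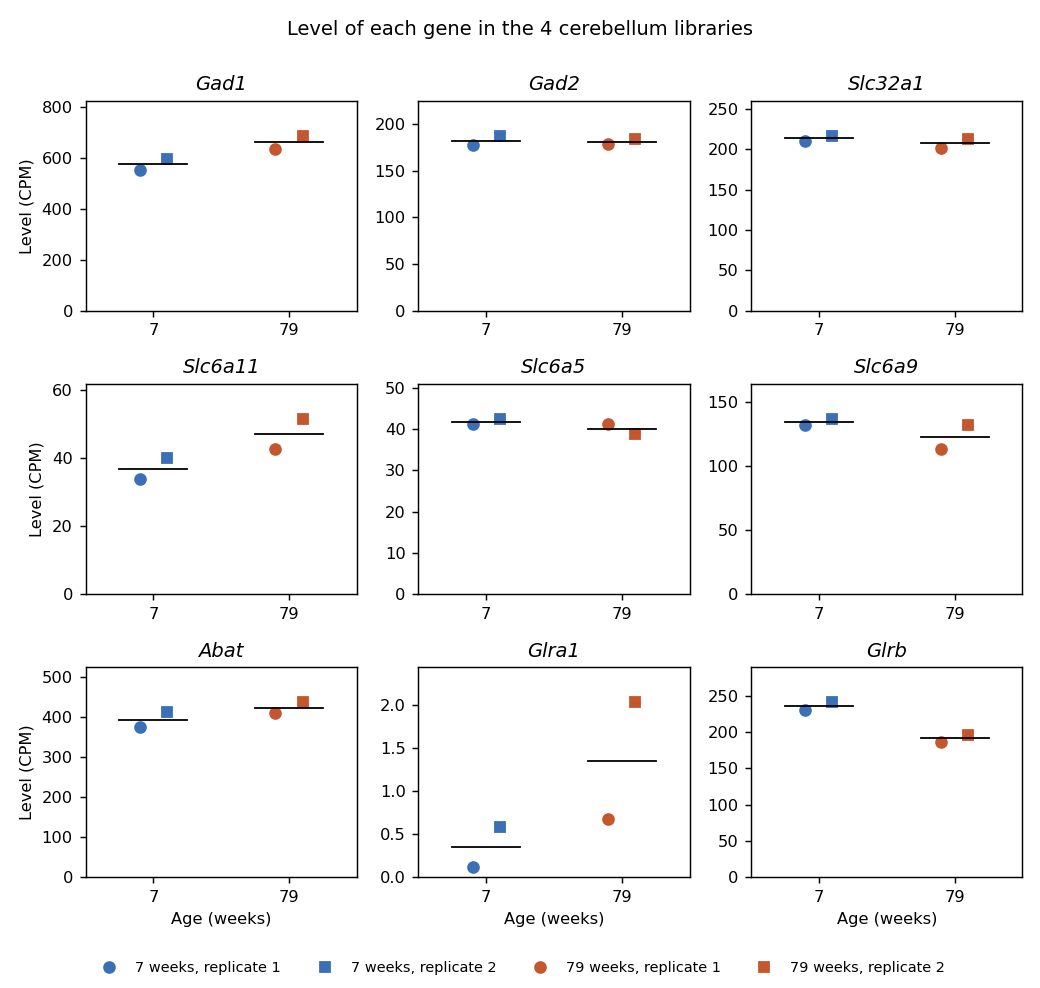
Level (CPM, linear axis from 0, scaled for each gene) of the 9 genes in each library against age in weeks; points are the 2 libraries of an age and lines are their means. Glrb sits at 231 and 241.1 CPM at 7 weeks and at 186.4 and 196.4 CPM at 79 weeks, while Gad2 stays between 177.3 and 187.5 CPM in all 4 libraries.

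The promoters of Glrb and of Gphn (gephyrin, its scaffold partner) are shown because both genes were lower at 79 weeks, and those of Gad1 and Gad2 because the ages overlapped for one enzyme of this step and not for the other. Each is the 250 bases before a transcription start in RefSeq on GRCm38.p6, a different build from the mm9 of the counts, so no coordinate was joined to a count: Glrb on the minus strand at chr3:80913661-80913910, and on the plus strand Gphn at chr12:78226405-78226654, Gad1 at chr2:70561879-70562128 and Gad2 at chr2:22622077-22622326. Capitals mark matches on either strand to the TATA box TATAAA, to the GC box GGGCGG, to the CCAAT box as named, to the E-box CACGTG and to the cAMP response half-site TGACG.
Glrb: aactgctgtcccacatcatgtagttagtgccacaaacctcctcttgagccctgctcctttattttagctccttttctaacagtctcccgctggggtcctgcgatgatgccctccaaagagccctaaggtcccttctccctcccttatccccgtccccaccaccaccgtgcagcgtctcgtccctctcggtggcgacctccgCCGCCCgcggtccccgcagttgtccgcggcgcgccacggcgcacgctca
Gphn: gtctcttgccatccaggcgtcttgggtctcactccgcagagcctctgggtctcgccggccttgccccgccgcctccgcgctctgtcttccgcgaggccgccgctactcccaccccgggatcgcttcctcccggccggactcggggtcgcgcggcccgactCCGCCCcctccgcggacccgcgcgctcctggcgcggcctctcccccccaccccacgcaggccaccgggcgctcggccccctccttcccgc
Gad1: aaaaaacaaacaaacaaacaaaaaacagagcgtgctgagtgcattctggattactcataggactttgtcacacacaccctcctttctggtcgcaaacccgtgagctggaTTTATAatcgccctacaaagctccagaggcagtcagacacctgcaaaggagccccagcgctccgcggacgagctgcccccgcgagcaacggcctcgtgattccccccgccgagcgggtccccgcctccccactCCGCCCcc
Gad2: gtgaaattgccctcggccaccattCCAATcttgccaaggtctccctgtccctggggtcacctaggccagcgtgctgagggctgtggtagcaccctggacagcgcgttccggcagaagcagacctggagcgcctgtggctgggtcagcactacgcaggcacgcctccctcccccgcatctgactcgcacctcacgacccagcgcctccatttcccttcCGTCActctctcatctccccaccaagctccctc
Glrb, Gphn and Gad1 each held 1 GC box match, a motif present in 32.7% of 32851 such RefSeq windows. Gad1 also held 1 TATA box match (12.4% of windows), and Gad2 held 1 CCAAT match (33.8%) and 1 TGACG match (17.8%) instead. CACGTG, found in 6.02% of windows, matched none of the 4. CG dinucleotides numbered 20 in Glrb, 34 in Gphn, 17 in Gad1 and 13 in Gad2, against a median of 6 over all windows. In the same order, 82.1%, 96.5%, 76.5% and 68.5% of windows held fewer. A match describes these letters only and is not evidence of binding. Of the 9 genes, 7 had a promoter in the table, and Abat and Glra1 are named only.

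The enzymes of GABA synthesis came out differently from each other. Gad1 (ENSMUSG00000070880) encodes the larger glutamate decarboxylase, which makes GABA throughout the cell. It stood at 552.6 and 597.4 CPM at 7 weeks and at 635.3 and 687.8 CPM at 79 weeks. Both 79-week libraries were above both 7-week libraries, with means of 575 ± 31.7 and 662 ± 37.1 CPM (SD, n = 2 each). The log2 fold change of 0.20 (SE 0.07) had an adjusted p of 0.114 by edgeR's quasi-likelihood test, so Gad1 was not called. It passed the threshold when 79-week replicate 1 was left out (0.26, adjusted p = 0.0306), with no low-count filter (adjusted p = 0.0424) and in DESeq2 (adjusted p = 0.0438), 3 of 18 other settings, over which edgeR's and the other tools' adjusted p ran from 0.0306 to 0.917. All 18 gave a positive log2 fold change, from 0.13 to 0.26.

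Gad2 (ENSMUSG00000026787), the smaller decarboxylase that sits at nerve terminals, was at 177.3 and 187.5 CPM at 7 weeks and at 178.2 and 183.8 CPM at 79 weeks. The 79-week libraries lay inside the 7-week range. Its log2 fold change was -0.01 (SE 0.05), its adjusted p 0.911 by edgeR, and the 95% interval of its fold ran from 0.912 to 1.08. Its sign was positive in 6 of 18 other settings, among them scaling by library size alone (0.04). Within each library the count ratio of Gad1 to Gad2, which does not depend on scaling, was 3.12 and 3.19 at 7 weeks and 3.57 and 3.74 at 79 weeks. The ratio was higher in both 79-week libraries, a log2 difference of 0.21. The exact two-sided permutation p was 0.333, the smallest that 2 libraries against 2 can give, and it was 0.444 after Benjamini-Hochberg adjustment over the 8 ratios computed.

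Slc32a1 (ENSMUSG00000037771), the vesicular carrier that loads both GABA and glycine, was at 210 and 216.6 CPM at 7 weeks and at 201.5 and 212.7 CPM at 79 weeks. The ages overlapped, and the log2 fold change was -0.04 (SE 0.05, adjusted p = 0.648 by edgeR), with a 95% interval of the fold from 0.893 to 1.06. Under library-size scaling alone the sign flipped, to 0.01. The noncoding gene Gm14204 overlaps Slc32a1 in RefSeq and had up to 549 counts in a library, and since no source used here gives the strand setting, reads of the pair may not be fully told apart. Against this shared carrier, the count ratio of Gad1 was 2.63 and 2.76 at 7 weeks and 3.15 and 3.23 at 79 weeks, a log2 difference of 0.25 with no overlap (exact permutation p = 0.333). The ratio of Gad2 to Slc32a1 was 0.844 and 0.866 at 7 weeks and 0.884 and 0.864 at 79 weeks, so the ages overlapped (exact permutation p = 0.667). These last 2 ratios were chosen after the values were seen. A ratio shows unequal change and does not say which of its genes moved.

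**Figure D2:**
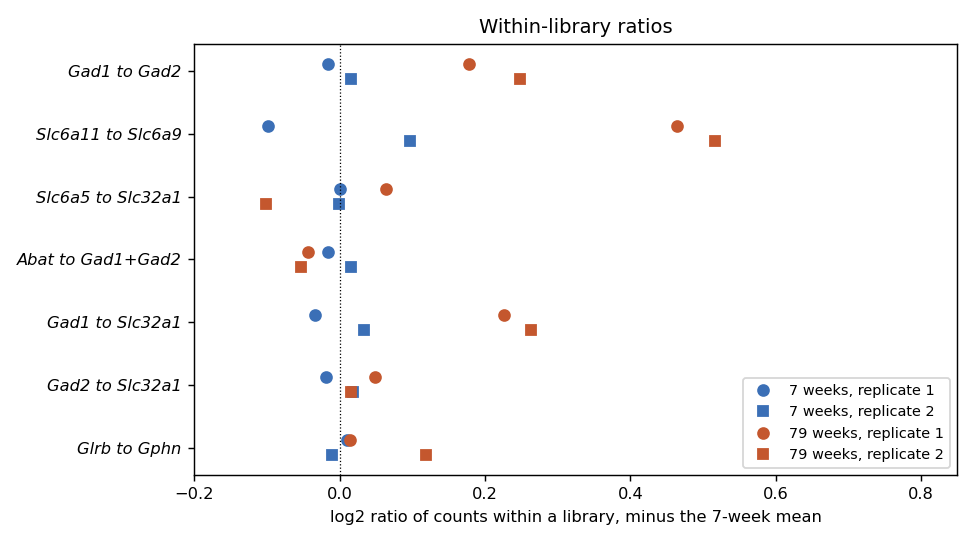
Count ratios of gene pairs within each library, as log2 values minus their 7-week mean, for 7 of the 8 ratios (Glra1 to Glrb is left out for its scale); points are single libraries. The 79-week libraries lie to the right for Gad1 to Gad2, Gad1 to Slc32a1 and Slc6a11 to Slc6a9, whose log2 differences are 0.21, 0.25 and 0.49.

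Of the uptake carriers, Slc6a11 (ENSMUSG00000030307), a GABA transporter found mainly on astrocytes, was higher in both 79-week libraries but not called. It stood at 33.77 and 39.91 CPM at 7 weeks and at 42.63 and 51.46 CPM at 79 weeks. The ages did not overlap, but the libraries of each age were spread apart, with means of 36.8 ± 4.34 and 47.0 ± 6.25 CPM (SD, n = 2 each). The log2 fold change was 0.35 (SE 0.12) with an adjusted p of 0.109 by edgeR. Without 79-week replicate 1 it was 0.48 (adjusted p = 0.00444) and without 79-week replicate 2 it was 0.20 (adjusted p = 0.274). It was also called with no low-count filter (adjusted p = 0.0019), and over 18 other settings the adjusted p ran from 0.0019 to 1 while the direction stayed positive. The list of Bergmann glia and astrocyte markers summed to 4492 and 4857 CPM at 7 weeks and to 4178 and 4492 CPM at 79 weeks. Of these 12 markers, 2 were called higher and 1 lower, beside 4.17% and 4.68% of all tested genes, and none was at 0. The astrocyte filament gene Gfap was at 132.3 and 147.5 CPM at 7 weeks and 194.2 and 247.2 CPM at 79 weeks (adjusted p = 0.0161 by edgeR, 0.0725 with robust dispersion). Aldh1l1 was also called higher (log2 fold change 0.34, edgeR adjusted p = 0.0389), and Slc1a3 was called lower (-0.25, edgeR adjusted p = 0.0435). The median log2 fold change of the list was -0.08. The part of these glial markers in the Slc6a11 values was not tested, and in bulk tissue more or fewer cells of a type cannot be told apart from more or less RNA per cell.

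Slc6a5 (ENSMUSG00000039728), the glycine transporter of glycinergic nerve terminals, was at 41.25 and 42.47 CPM at 7 weeks and at 41.33 and 38.93 CPM at 79 weeks. The ages overlapped (log2 fold change -0.06, SE 0.08, adjusted p = 0.653 by edgeR). Its count ratio to Slc32a1 was 0.196 in both 7-week libraries and 0.205 and 0.183 at 79 weeks, values that lie on either side of the younger ones (exact permutation p = 1). Markers of Golgi and other glycinergic interneurons gave 0 calls of 6 tested in edgeR, beside 8.84% of all tested genes, and 0 in DESeq2 or limma-voom. In edgeR 1 of 6 was at an unadjusted p under 0.05, a mark that 26.7% of all tested genes passed.

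Slc6a9 (ENSMUSG00000028542), the glycine transporter found mainly on glia, was at 132.5 and 136.8 CPM at 7 weeks and at 113.2 and 131.8 CPM at 79 weeks. Replicate 1 at 79 weeks, the library with the high Ttr level, was the low one, and the other 79-week library sat just under the 7-week pair. The log2 fold change of -0.13 (SE 0.08) was not called (adjusted p = 0.303 by edgeR). It was -0.03 (adjusted p = 0.878) without 79-week replicate 1 and -0.26 (adjusted p = 0.0412) without 79-week replicate 2, so its size depends on which 79-week library is kept. Over 18 other settings the adjusted p ran from 0.0412 to 1, always with a negative sign. The count ratio of Slc6a11 to Slc6a9 was 0.255 and 0.292 at 7 weeks and 0.377 and 0.390 at 79 weeks. Both older libraries had the higher ratio, a log2 difference of 0.49 (0.52 without 79-week replicate 1), with an exact permutation p of 0.333.

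Abat (ENSMUSG00000057880), the mitochondrial GABA transaminase, was at 374.9 and 411.9 CPM at 7 weeks and at 409.9 and 436 CPM at 79 weeks. The ages overlapped slightly, and the log2 fold change was 0.10 (SE 0.07, adjusted p = 0.37 by edgeR). Its count ratio to the sum of the decarboxylases was 0.5136 and 0.5247 at 7 weeks and 0.5039 and 0.5003 at 79 weeks. The older libraries were lower without overlap, a log2 difference of -0.05 (exact permutation p = 0.333).

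Glrb (ENSMUSG00000028020), the beta subunit of the glycine receptor, was the called gene among the 9. It stood at 231 and 241.1 CPM at 7 weeks and at 186.4 and 196.4 CPM at 79 weeks. Both older libraries were below both younger ones by more than the spread within an age, with means of 236.1 ± 7.14 and 191.4 ± 7.10 CPM (SD, n = 2 each). The fold was 0.811, with a 95% interval from 0.745 to 0.883, and the log2 fold change was -0.30 (SE 0.05, adjusted p = 0.0176 by edgeR's quasi-likelihood test). All 18 other settings gave a negative log2 fold change, from -0.35 to -0.25, and 13 of them called Glrb, with adjusted p from 2.12e-05 to 0.249. In edgeR, leaving out a 7-week library ended the call, with an adjusted p of 0.123 without replicate 1 and 0.105 without replicate 2, and Glrb was still called without 79-week replicate 1 (-0.26, adjusted p = 0.0282) or replicate 2 (-0.35, adjusted p = 0.00329). In DESeq2 the call was lost without 7-week replicate 1 (adjusted p = 0.101), 7-week replicate 2 (adjusted p = 0.249) and 79-week replicate 1 (adjusted p = 0.188), and kept without 79-week replicate 2 (adjusted p = 0.0286).

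Gephyrin, encoded by Gphn, binds the intracellular loop of the beta subunit and holds glycine receptors and many GABA-A receptors in clusters. Gphn was at 106.4 and 112.6 CPM at 7 weeks and at 85.56 and 83.87 CPM at 79 weeks. It was lower in both older libraries, with a fold of 0.773 (95% interval 0.704 to 0.849) and an adjusted p of 0.0134 by edgeR, 0.113 and 0.0904 without 7-week replicates 1 and 2. The count ratio of Glrb to Gphn, chosen after the values were seen, was 2.17 and 2.14 at 7 weeks and 2.18 and 2.34 at 79 weeks. That is a log2 difference of 0.07 against an SD of 0.07 between the 79-week libraries (exact permutation p = 0.333). Some markers of granule and Purkinje cells were also called lower. The granule neuron list had 8 of 12 called lower and 1 higher (summed level 8810 and 8596 CPM at 7 weeks, 7073 and 6802 CPM at 79 weeks). The Purkinje list had 5 of 12 lower and 0 higher (11110 and 11160 CPM, then 9156 and 9385 CPM). Over all tested genes, 4.68% were called lower and 4.17% higher. Neither list had a marker at 0. The granule gene called higher was Neurod2 (0.33, adjusted p = 0.0142), and 3 uncalled Purkinje markers, Slc1a6, Gng13 and Pcp4, had log2 fold changes of 0.12 to 0.14. Their part in the lower Glrb and Gphn values was not tested.

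**Figure D3:**
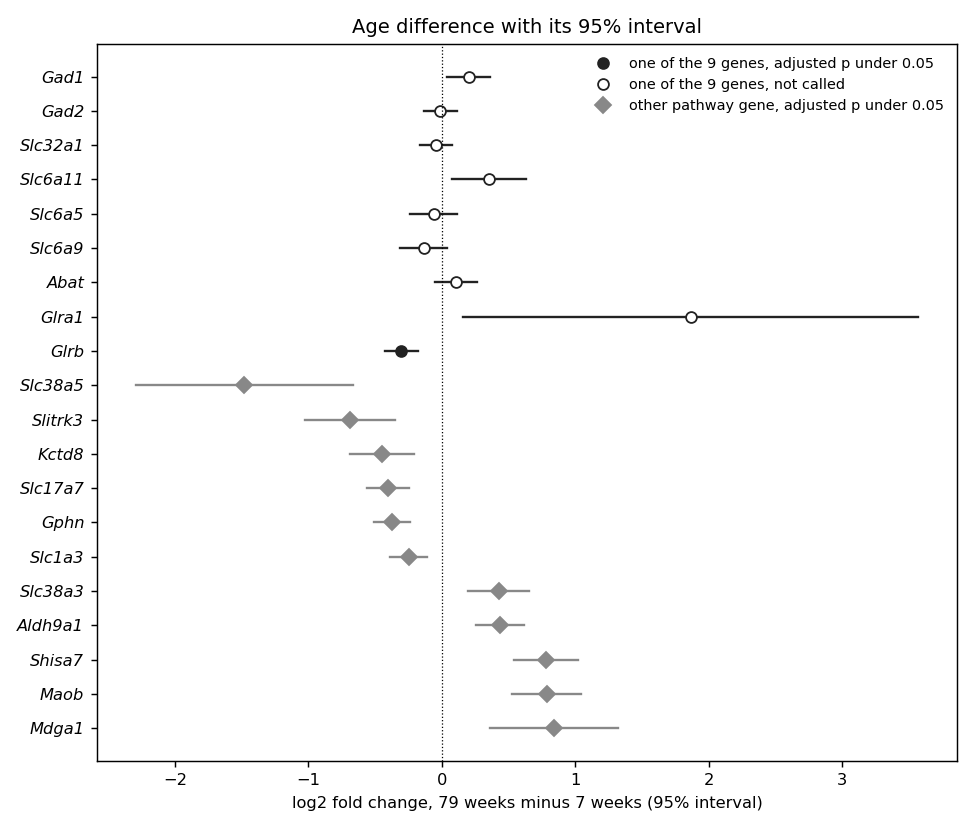
Log2 fold change (79 weeks minus 7 weeks) with its 95% interval from edgeR for the 9 genes (circles) and for the 11 other pathway genes that were called (grey diamonds). Among the 9, the filled circle of Glrb at -0.30 is the one with an adjusted p under 0.05, and the interval of Glra1 (0.16 to 3.57) is the widest.

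Glra1 (ENSMUSG00000000263), the alpha subunit of the adult receptor in spinal cord and brainstem, was close to the limit of detection. It had 2 and 12 counts at 7 weeks and 13 and 47 counts at 79 weeks, or 0.125, 0.579, 0.673 and 2.03 CPM. The ages were separated by 1 count, and the libraries of each age differed more than that from each other. Its fitted log2 fold change of 1.87 (SE 0.73) had an adjusted p of 0.154 by edgeR and was not called. With a library left out in edgeR it ranged from 0.83 without 79-week replicate 2 (adjusted p = 0.565) to 3.38 without 7-week replicate 2 (adjusted p = 0.195), and it was called without 79-week replicate 1 (2.42, adjusted p = 0.00786). Over 17 other settings the adjusted p ran from 0.00323 to 1, and a filter of 1 CPM in 2 libraries left Glra1 out. Pooled over the libraries of an age, the rate was 3.71 times as high at 79 weeks, with a 95% counting interval from 2.05 to 7.19 that leaves out the spread between libraries.

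The other alpha subunits give the setting for these few reads. Glra2, the subunit that predominates in immature neurons, had 55 and 60 counts at 7 weeks and 34 and 37 at 79 weeks, or 3.43, 2.9, 1.76 and 1.6 CPM. Both older libraries were lower, yet the log2 fold change of -0.91 (SE 0.27) missed the threshold (adjusted p = 0.0825 by edgeR). Glra3 had 0 and 1 counts at 7 weeks and 9 and 16 at 79 weeks and did not pass the low-count filter, and Glra4 had 0 counts in all 4 libraries. The pooled rate ratio of 79 to 7 weeks was 0.535 (95% counting interval 0.392 to 0.725) for Glra2 and 21.7 (3.54 to 889) for Glra3, whose younger libraries hold a single read. With no low-count filter, a fit that called 3051 genes, edgeR's adjusted p was 0.00323 for Glra1, 0.0466 for Glra2 and 0.00237 for Glra3.

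As a share of the alpha subunit counts of a library (57, 73, 56 and 100 counts), a measure added after the values were seen, Glra1 made up 3.51% (exact Clopper-Pearson 95% interval 0.428 to 12.1) and 16.4% (8.79 to 27) at 7 weeks and 23.2% (13 to 36.4) and 47% (36.9 to 57.2) at 79 weeks. Glra2 made up 96.5% (87.9 to 99.6) and 82.2% (71.5 to 90.2) at 7 weeks and 60.7% (46.8 to 73.5) and 37% (27.6 to 47.2) at 79 weeks. Each older library had a larger Glra1 share and a smaller Glra2 share than each younger one, although the Glra1 intervals of 7-week replicate 2 and 79-week replicate 1 overlap. The exact two-sided permutation p was 0.333 for both. The intervals cover counting error only, and reads without molecular identifiers are not independent molecules.

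Glra1 is expressed in the brainstem, next to the cerebellum, and the markers of cerebellar nuclei and brainstem neurons also differed between libraries. Their summed level was 8.66 and 28.8 CPM at 7 weeks and 37 and 50.6 CPM at 79 weeks. Of the 3 tested, 1 was called higher, beside 4.17% of all tested genes. It was Th, a gene of catecholamine synthesis (1.68, 7.91, 22.8 and 36.3 CPM), whose call was lost in DESeq2 (adjusted p = 0.0971) and with edgeR's robust dispersion (adjusted p = 0.264). Without Th the sums were 6.98, 20.8, 14.2 and 14.2 CPM, so the ages then overlapped. Without Th, Spp1 and Slc17a6, the sums of the few remaining reads were 0.374, 0.676, 0.932 and 0.994 CPM, higher in both 79-week libraries. Among these, Tph2 of serotonin neurons had 3, 5, 8 and 16 counts, and the serotonin transporter gene Slc6a4 had 0, 0, 3 and 1. Slc5a7, also among them, had 3, 9, 6 and 5 counts, so its ages overlapped. These sums rest on a few reads per gene and were not tested. Of the 14 markers 7 had 0 counts in all libraries, among them Chat, Hoxa5, Hoxb5 and Hoxc4. Slc17a6, the glutamate carrier of cerebellar nuclei, had 5 and 141 counts in the 7-week libraries and 28 and 33 at 79 weeks. The part of these cells in the Glra1 counts was not tested.

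**Figure D4:**
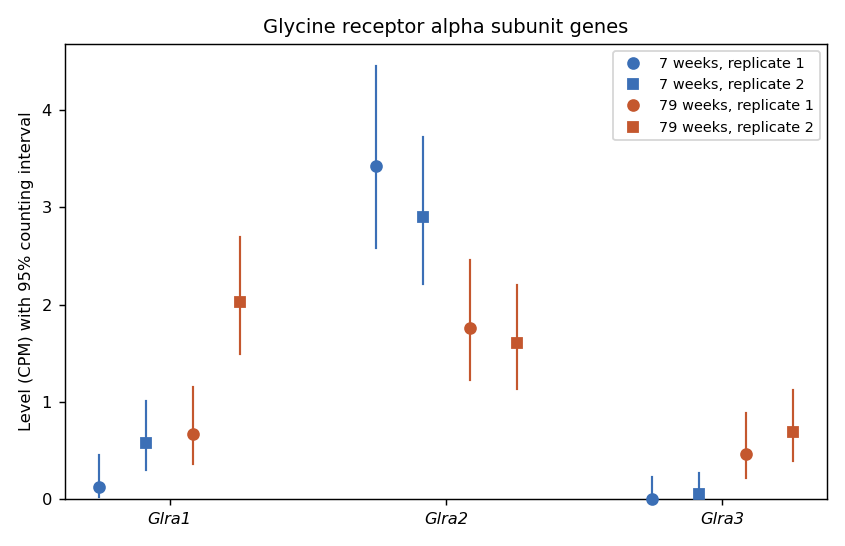
Level (CPM) of the glycine receptor alpha subunit genes in each library, with 95% exact Poisson intervals that cover counting error only. Glra2 falls between 2.9 and 3.43 CPM in the 7-week libraries and between 1.6 and 1.76 CPM in the 79-week libraries, and Glra1 reaches 2.03 CPM in 79-week replicate 2.

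Around the 9 genes, 9 lists of pathway partners named 81 genes, of which 71 were tested. edgeR called 5 of these higher and 6 lower, beside the background of 8.84% in either direction, and their median log2 fold change was -0.05. In GABA uptake and breakdown, 2 of 8 were higher and 0 lower. These were Maob, the monoamine oxidase of astrocytes (15 ± 0.307 and 25.9 ± 3.04 CPM, 1.72-fold, adjusted p = 0.0106), and Aldh9a1, an aldehyde dehydrogenase that can form GABA from a putrescine product (36.6 ± 0.071 and 49.6 ± 2.27 CPM, 1.35-fold, adjusted p = 0.0177). No gene of this list was lower at an unadjusted p under 0.05. Aldh5a1, which takes the product of Abat onward, was named after its values were seen and stood at 109.4 and 111.8 CPM at 7 weeks and 113 and 113.2 CPM at 79 weeks.

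In the supply of glutamine and glutamate, 1 of 13 was higher and 2 lower. The glial glutamine transporter Slc38a3 was 1.34-fold higher (edgeR adjusted p = 0.0401). Slc38a5, a related glutamine transporter, was at 0.359-fold (edgeR adjusted p = 0.0423). It had few reads, 39 and 60 counts at 7 weeks and 23 and 17 at 79 weeks. The glutamate transporter of Bergmann glia Slc1a3 was at 0.842-fold (edgeR adjusted p = 0.0435). Of the postsynaptic scaffold and adhesion genes, 2 of 11 were higher and 2 lower. Shisa7, an auxiliary protein of GABA-A receptors, was 1.72-fold higher (adjusted p = 0.00856). Mdga1, a suppressor of neuroligin binding, was 1.79-fold higher (adjusted p = 0.048) with 79-week libraries at 26.16 and 40.88 CPM. The adhesion protein gene Slitrk3 was at 0.62-fold (adjusted p = 0.031), and Gphn was the fourth.

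Of the vesicular carriers of other transmitters, Slc17a7, the glutamate carrier of granule neurons, was at 0.755-fold (adjusted p = 0.016), and 1 of 2 tested was called. Of the GABA-B receptor genes, Kctd8, an auxiliary subunit, was at 0.734-fold (adjusted p = 0.0389), 1 of 5. At an unadjusted p under 0.05 in edgeR, 3 of the 5 were lower. The receptor subunit gene Gabbr1 had a log2 fold change of -0.22 and was not called in edgeR (adjusted p = 0.0635). DESeq2 (adjusted p = 0.00164) and limma-voom (adjusted p = 0.0391) called it lower. Gabbr2 was at -0.19 (edgeR adjusted p = 0.122) and was called lower in DESeq2 (adjusted p = 0.0441). The remaining lists gave no call in the reported edgeR fit, in DESeq2 or in limma-voom with all libraries. Other edgeR settings on all libraries did call some of their genes. With no low-count filter, Dld (adjusted p = 0.0117), Srr (adjusted p = 0.0312) and Clcn3 (adjusted p = 0.0196) were lower. Slc12a7 was higher in that fit (adjusted p = 0.00578), which also called Glra2 and Glra3. The unadjusted counts of these lists are set beside the 26.7% of all tested genes that passed an unadjusted p under 0.05 in edgeR, in either direction. Of 13 glycine and serine genes 3 were lower at that mark. Dld, a subunit of the glycine cleavage system, had a log2 fold change of -0.21 (edgeR adjusted p = 0.0518, and 0.0488 under RLE scaling). Psat1, an enzyme of serine synthesis, was at -0.02 (edgeR adjusted p = 0.907). Of 10 chloride and pH genes 1 was higher and 2 lower at that mark, and Slc12a5, the chloride exporter of mature neurons, had a log2 fold change of -0.03 (adjusted p = 0.813), Slc4a10 of -0.13 (adjusted p = 0.377). Of 8 tested transcription factors of inhibitory neurons 1 was higher at that mark, and Lhx1 and Tfap2b were at 0.06 and 0.07 (adjusted p = 0.577 and 0.645).

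The calls of the partners depended on single libraries and on the tool. In edgeR, none of the tested partners was called without 7-week replicate 1 and Shisa7 alone (1 gene) without replicate 2. DESeq2 called 12 partners on all libraries, 2 and 2 without 7-week replicates 1 and 2, and 3 and 6 without 79-week replicates 1 and 2. Slc17a7 was among them in each of these 4 DESeq2 fits, with adjusted p from 3.58e-05 to 0.00802. In edgeR without 79-week replicate 1, the calls of Slc38a3 (0.27, adjusted p = 0.056), Slc1a3 (-0.22, adjusted p = 0.0781) and Kctd8 (-0.35, adjusted p = 0.0596) were lost. That fit gained 4 others, Gls2 (0.41, adjusted p = 0.0108), Glra3 (4.39, adjusted p = 0.022), Slc4a10 (-0.25, adjusted p = 0.0473) and Gabbr1 (-0.24, adjusted p = 0.0452). Without 79-week replicate 2 that of Slc38a5 was lost (-1.17, adjusted p = 0.0662), Mdga1 went from a log2 fold change of 0.84 to 0.47, and calls gained included Slc12a7 (1.297, adjusted p = 0.000325), Clcn3 (-0.28, adjusted p = 0.0155) and Gabbr2 (-0.27, adjusted p = 0.0156). These gained genes were named after their values were seen.

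Other settings on all 4 libraries also ended partner calls, with no change of sign. Slc38a5 was lost with the replicate block (adjusted p = 0.0529) and in DESeq2 (adjusted p = 0.106). Slc1a3 was lost under upper-quartile and library-size scaling (adjusted p = 0.0547 and 0.0741 in edgeR), and Kctd8 under library-size scaling (adjusted p = 0.0532) and in DESeq2 (adjusted p = 0.0511). Mdga1 was lost in limma-voom (adjusted p = 0.0683) and with edgeR's robust dispersion (adjusted p = 0.17), and Slc38a3 in limma-voom (adjusted p = 0.0537).

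Markers of the cells that make GABA were counted in the same libraries as a reference for Gad1, Gad2 and Slc32a1. Of 10 molecular layer interneuron markers 0 were higher and 1 lower, beside 4.17% and 4.68% of all tested genes. The lower one was Cacna1e, a calcium channel gene (416.5, 374, 276.9 and 258.4 CPM, adjusted p = 0.00734 by edgeR). The list's summed level was 1509 and 1574 CPM at 7 weeks and 1414 and 1455 CPM at 79 weeks, and its median log2 fold change was 0.04. That sum includes Cacna1e, whose mean went from 395.2 to 267.6 CPM, a larger fall than that of the sum. The Purkinje list had a median of -0.15, while Gad1, which these cells also express, stood at 0.20. Microglial markers summed to 118.5, 131.3, 203.9 and 252 CPM and myelin markers to 6304, 5927, 3778 and 5312 CPM, in the same order of libraries. The choroid plexus list summed to 159.8 and 176.3 CPM at 7 weeks and to 6816 and 170.6 CPM at 79 weeks, a feature of 79-week replicate 1, in which Gad1 and Slc6a11 were the lower of the 79-week pair.

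**Figure D5:**
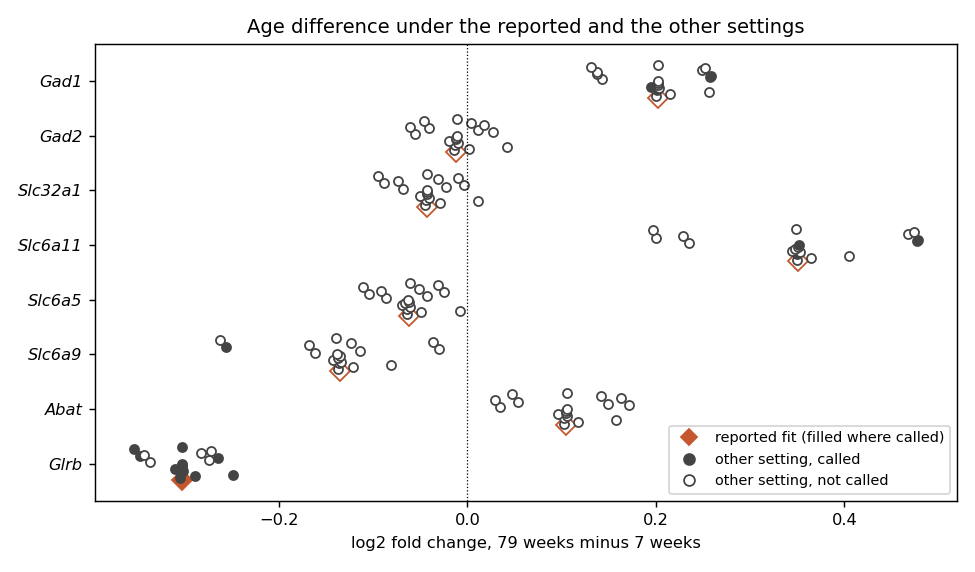
Log2 fold change (79 weeks minus 7 weeks) of 8 of the 9 genes under the reported fit (diamond) and under 18 other settings (circles, filled where called); Glra1 is left out for its scale. Glrb stays between -0.35 and -0.25, Gad1 between 0.13 and 0.26, and the points of Gad2 and Slc32a1 lie on both sides of 0.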

How the data were processed

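Values were read counts per Ensembl gene, deposited by the authors for 4 cerebellum RNA libraries; the submitters' processing notes name cutadapt, STAR and HTSeq without versions, and build mm9. RNA was extracted with Trizol and libraries were made with an mRNA kit, per the labels. For the annotation release and strand setting, the sources used here give nothing. HTSeq's summary lines were removed; reads assigned to no gene came to 29.02% to 34.36% of the gene counts.

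In R 4.3.3, genes were filtered with filterByExpr (minimum count 10, minimum total 15), scaled by TMM and tested, 79 weeks against 7 weeks, with edgeR 4.0.16 (quasi-likelihood F test, no covariates), with Benjamini-Hochberg adjustment over 15292 genes and a threshold of 0.05. Intervals are 95%. The fit was tested on simulated data with a common dispersion for all genes and no outlying library. That test does not show how the fit performs on these libraries. Ratios use raw counts in a library. Other settings were scaling by RLE, by upper quartile or by library size, other filters, DESeq2 1.42.0, limma-voom (limma 3.58.1), robust dispersion, a replicate block and each library left out; a crossed pairing and DESeq2 without each library were added after the data were seen.

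Members and lists were chosen with earlier results of these data known. Named were the 9 genes, up to 4 called genes of each partner list or, with none called, the 2 with the highest mean CPM in the list, up to 2 called genes of a marker list, and Ttr and Gabra6; other names were chosen after their values were seen. Of 224 list entries 219 were found, 1 through a synonym, and 7 symbols stand in more than 1 list. Some listed genes are not reported here.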

Additional observations from a re-analysis of the deposited data

How the results depend on the processing

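Directions of Gad1, Slc6a11, Slc6a5, Slc6a9, Abat and Glrb were the same in 18 of 18 other settings and that of Glra1 in 17 of 17, while Gad2 held its sign in 12 and Slc32a1 in 17 of 18. Of the 9 genes, 4 were called with no low-count filter, 2 in DESeq2, 3 with the replicate block and 0 to 4 when a library was left out; DESeq2 without 7-week replicate 1, 7-week replicate 2 or 79-week replicate 1 called 0. Of the pathway partners, 22 were called with no filter, 0 to 14 when a library was left out, and 2, 2, 3 and 6 in DESeq2 without 7-week replicates 1 and 2 and 79-week replicates 1 and 2. Over all genes, 3051 were called with no filter, 0 to 2425 when a library was left out, and 243, 425, 381 and 654 in DESeq2 without those libraries in turn. The cause of these shifts was not tested, but a left-out library leaves 1 at its age, which is assumed to vary like the others. The labels do not say whether replicate numbers pair the libraries. Deviations of same-numbered libraries from their age mean correlated at -0.106 over 15292 genes, and with 2 libraries per age this cannot settle it. The replicate block called Slc6a11 (adjusted p = 0.0378), Glra1 (adjusted p = 0.05 after rounding) and Glrb (adjusted p = 0.0155) and lost Slc38a5 (adjusted p = 0.0529), and the crossed pairing called 1 of the 9 and 14 partners. Under other scalings the median log2 fold change of all genes was at most 0.06. Depth limits Glra1, Glra2, Glra3 and the partner Slc38a5, whose counts are under 100 in each library.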
